A study of Mus musculus with 4 samples.

Results

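The receptor Trem2, its membrane adaptors Tyrobp and Hcst, the kinase Syk, the phospholipase Plcg2 and the phosphatase Inpp5d were followed through the immune cells of aged, amyloid-bearing mouse cortex. They were taken by gene symbol, 6 of the 16798 genes counted, and no level or fold entered that rule. All 6 were found, and each is described in every cell class and microglia state that held enough cells, in each library.

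Trem2 is a receptor of microglia and some other myeloid cells that binds lipids, lipoproteins and amyloid. It has no signalling tail of its own and pairs with Tyrobp, whose immunoreceptor tyrosine-based activation motif is phosphorylated by Src-family kinases and then recruits Syk, or with Hcst, which carries a binding site for phosphoinositide 3-kinase. Downstream of Syk, Plcg2 cleaves a membrane phosphoinositide into second messengers, and Inpp5d, the lipid phosphatase known as SHIP-1, removes a phosphate from the product of phosphoinositide 3-kinase and so opposes the pathway. In amyloid models, Trem2 is known to be needed for microglia to gather at plaques and take on the disease-associated program, and coding variants of the human genes for several of these proteins alter the inherited likelihood of Alzheimer's disease.

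The cells were CD45+ leukocytes sorted from the cortex of mice aged 18 months and profiled by droplet single-cell RNA sequencing, which counts transcripts by unique molecular identifiers (UMIs) near their 3′ ends. AD mice carried the amyloid-forming APP/PS1 transgenes, and ADAM mice carried APP/PS1 and in addition lacked the receptor tyrosine kinases Axl and Mertk (Axl-/- Mertk-/-). Every group therefore carried APP/PS1, and no amyloid-free mice were compared. Each library pooled 2 cortices and each genotype had 2 libraries, called AD 1, AD 2, ADAM 1 and ADAM 2, which the labels call biological replicates. The labels name no cell type for the Axl and Mertk deletions, and no library can be divided into its mice. Cell classes and numbered microglia states are those the authors deposited. Such groupings rest on the expression of the cells themselves, so levels across them are given as descriptions without a test, and tests were made only between the genotypes.

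The libraries held 3241 to 4543 cells and 14963857 to 29831947 UMIs, 15451 cells and 94198251 UMIs in all, and 2 to 6 barcodes occurred in both of any pair of libraries. Microglia below are the 9077 cells with a state (1600 from AD 1, 3100 from AD 2, 2317 from ADAM 1 and 2060 from ADAM 2), with a median depth of 4719.5 to 6170.0 UMIs per cell. The 8 microglia markers summed to 12654 to 16485 CPM (counts scaled to the UMI total of the set) in microglia and to 326 to 532 CPM in T and NK cells. The 7 T-cell markers stood at 5479 to 6310 CPM in T and NK cells and at 8.0 to 19.5 CPM in microglia. In microglia, Axl itself was at 104, 67.1, 5.37 and 7.22 CPM in AD 1, AD 2, ADAM 1 and ADAM 2. A class or state was used in a library where it had at least 20 cells there. This left 3 libraries for states 1 and 6, neutrophils and B cells, and none of the endothelial or oligodendrocyte values (3 to 21 and 3 to 8 cells) is described.

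On GRCm38, in the GENCODE vM21 annotation, Trem2 lies on chromosome 17 (48346401 to 48354147, plus strand), Syk on chromosome 13 (52583173 to 52648792, plus), Plcg2 on chromosome 8 (117498291 to 117635142, plus) and Inpp5d on chromosome 1 (87620312 to 87720507, plus). The 2 adaptor genes are neighbours on chromosome 7, Tyrobp at 30413760 to 30417585 on the plus strand and Hcst at 30417712 to 30419854 on the minus strand. They point towards each other, and 126 bases separate their 3′ ends. They lie 4.63 Mb from Axl. Of 147 genes tested in microglia within 5 Mb of Axl, Axl itself included, none was called between the genotypes by edgeR. Only 1, the deleted Axl, had an unadjusted p under 0.05, beside 2.35% of all 11924 genes tested.

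The 250 bases upstream of 4 of the genes are shown because the genes differed in opposite directions between microglia states 5 and 0, described below. Trem2 and Hcst stood higher in state 5, and Inpp5d and Plcg2 stood lower. The sequences are those of RefSeq on GRCm38.p6, 5′ to 3′ in the direction of transcription, at chr17:48346151-48346400 (Trem2, plus strand), chr7:30419855-30420104 (Hcst, minus), chr1:87620062-87620311 (Inpp5d, plus) and chr8:117498025-117498274 (Plcg2, plus). Capitals mark the motif found in each.
Trem2: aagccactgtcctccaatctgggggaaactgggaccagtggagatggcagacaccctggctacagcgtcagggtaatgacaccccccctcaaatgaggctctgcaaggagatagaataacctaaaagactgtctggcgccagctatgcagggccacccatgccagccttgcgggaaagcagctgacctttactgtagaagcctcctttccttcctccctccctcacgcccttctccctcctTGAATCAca
Hcst: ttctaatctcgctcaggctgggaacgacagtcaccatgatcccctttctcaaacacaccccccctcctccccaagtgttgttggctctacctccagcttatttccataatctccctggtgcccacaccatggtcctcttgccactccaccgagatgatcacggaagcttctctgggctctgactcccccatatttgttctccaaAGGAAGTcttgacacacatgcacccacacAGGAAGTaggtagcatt
Inpp5d: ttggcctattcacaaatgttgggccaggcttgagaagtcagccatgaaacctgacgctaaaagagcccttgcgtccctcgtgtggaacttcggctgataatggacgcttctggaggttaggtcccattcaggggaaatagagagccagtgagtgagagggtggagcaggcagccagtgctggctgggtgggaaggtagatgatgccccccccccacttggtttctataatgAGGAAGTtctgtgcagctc
Plcg2: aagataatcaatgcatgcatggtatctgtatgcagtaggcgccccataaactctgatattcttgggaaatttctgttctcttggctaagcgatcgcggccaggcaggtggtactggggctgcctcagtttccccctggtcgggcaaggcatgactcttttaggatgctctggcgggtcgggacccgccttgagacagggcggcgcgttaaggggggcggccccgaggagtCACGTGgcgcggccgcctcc

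The motifs sought on both strands in the 250 bases, chosen after the sequences were seen, were AGGAAGT, the core bound by ETS factors of the kind that includes the myeloid factor PU.1; TGANTCA, a loose form of the AP-1 site, which has C or G in place of the N; and CACGTG, the E box bound by MiT/TFE factors among others. AGGAAGT began 19 bases before the start of Inpp5d and 46 and 17 bases before that of Hcst, TGANTCA, with A in place of the N and so not the strict AP-1 site, began 9 bases before that of Trem2, and CACGTG 20 bases before that of Plcg2. Starts are those of RefSeq, which for Plcg2 and Syk are not those of GENCODE. Among all 32851 promoters of the table, 7.69% held AGGAAGT, 6.75% TGANTCA and 6.02% CACGTG in this length. AGGAAGT was thus shared by Hcst and Inpp5d, which lay on opposite sides of the division between states. The 2 promoters listed for Syk held none of the 3, and Tyrobp was not matched in the table. A match is a description of the letters and not a binding site.

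Trem2 was a microglial transcript in these cells, and it was most abundant in microglia state 5. Its level there was 8233, 7564, 6803 and 6848 CPM in AD 1, AD 2, ADAM 1 and ADAM 2, a mean of 7362 ± 677 (SD, n = 4). State 6 followed with 5210.5 ± 293 CPM (n = 3), and the ranges of states 5 and 6 were apart. States 3 and 2 (3965 ± 527 and 3835 ± 1091.5 CPM) overlapped in range, and so did states 2 and 4 (3222 ± 237 CPM). State 0, the largest state, had 2899.6, 2714, 2838 and 2629 CPM, a mean of 2770.4 ± 122 that overlapped with state 1 (2605 ± 326, n = 3) and lay apart from state 4. Among the other classes, macrophages had 1133, 1500.4, 1264.5 and 870.5 CPM, below every library of every microglia state.

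Trem2 in the remaining classes overlapped between neighbours in the order. Neutrophils had 813 ± 137 CPM (n = 3), proliferating cells 682 ± 238, B cells 561 ± 487 (n = 3), monocytes 194 ± 43.2 and T and NK cells 97.7 ± 33.0. In broad terms these levels went with those of the microglia markers in the same cells, though not library by library in B cells and proliferating cells. In B cells, for example, Trem2 was at 59.5 CPM in AD 1, where the markers summed to 212 CPM and Sall1, Gpr34 and Fcrls were at 0. It was at 593 and 1031 CPM in AD 2 and ADAM 2, where the markers summed to 5298 and 3315 CPM, the reverse order between AD 2 and ADAM 2. Per 100 UMIs of the microglia markers, Trem2 had 16.4 to 20.7 UMIs in neutrophils, 18.3 to 28.3 in monocytes, 19.7 to 29.1 in T and NK cells, 19.05 to 22.5 in macrophages and 25.8 to 36.0 in microglia. The part that free RNA or attached microglia had in these levels was not tested.

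State 2 had the widest spread in Trem2 among the states present in all 4 libraries, from 2446 CPM in ADAM 2 to 5114 in AD 1. In this state the 5 erythroid markers summed to 170234 CPM in ADAM 2 and were at 0 in the other libraries, and choroid plexus markers (4 of 6 detected, Kl at 0) summed to 61826 CPM in AD 1. Their part in the spread was not tested.

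**Figure D1:**
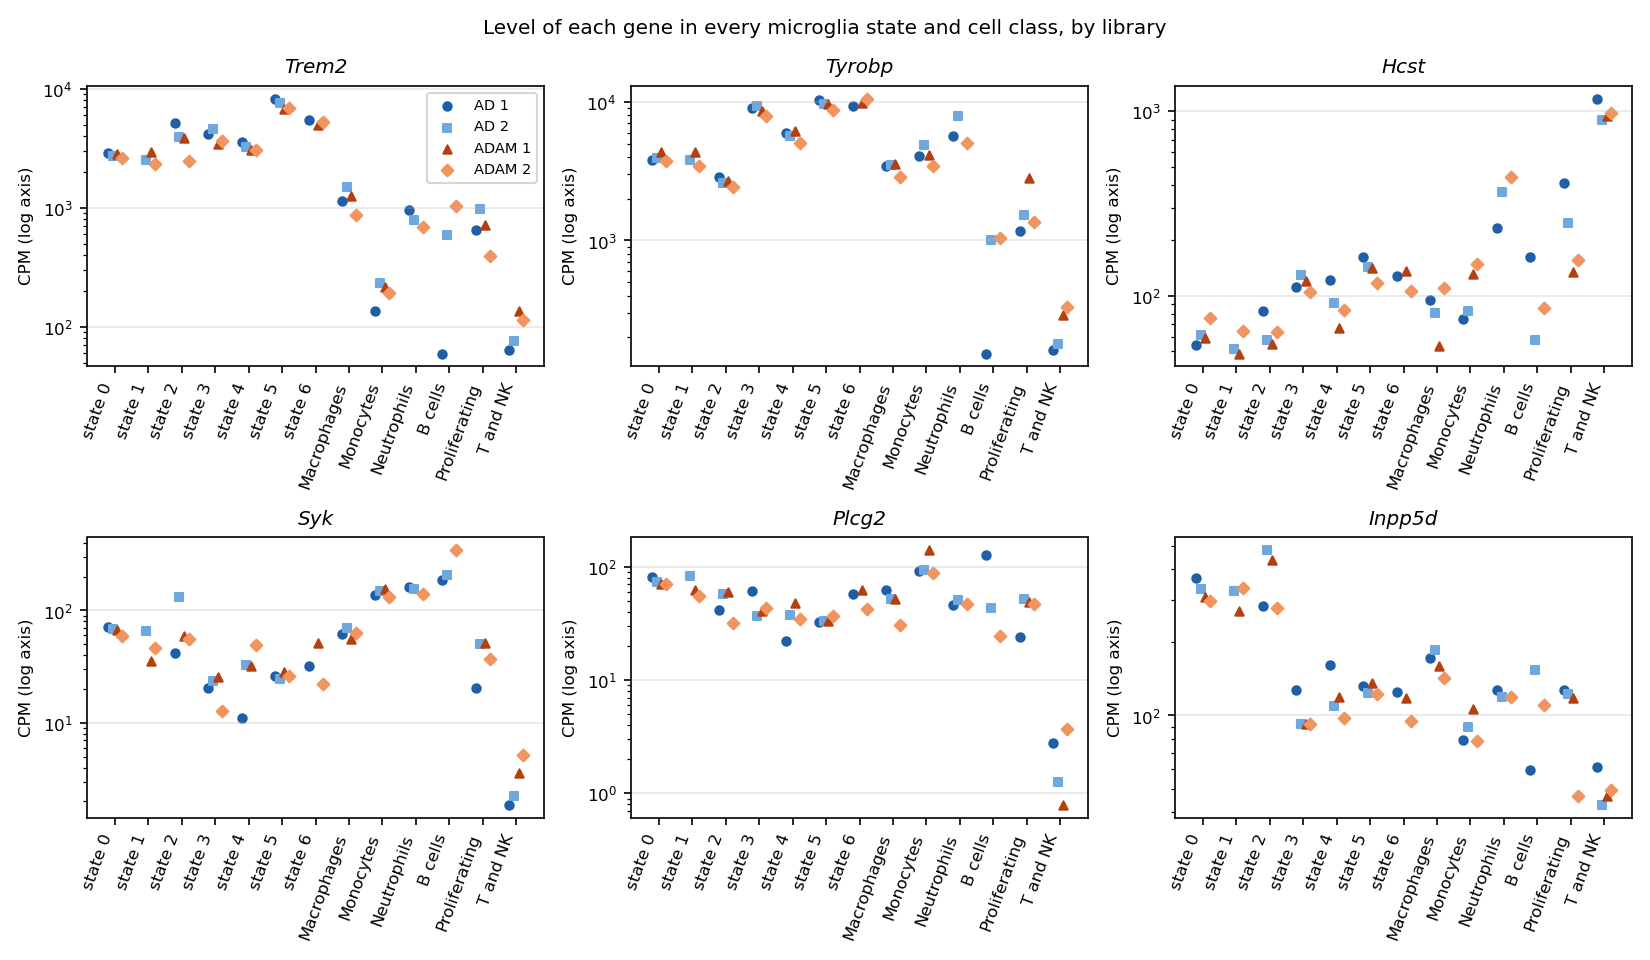
Level of each of the 6 genes (CPM, log axis) in the 7 microglia states and in the other cell classes, 1 point per library. Trem2 and Tyrobp are high in states 3, 5 and 6, Hcst is highest in T and NK cells, and Syk, Plcg2 and Inpp5d are lower in states 3 to 5 than in state 0.

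Tyrobp, the adaptor that many myeloid and NK receptors share, was spread over far more cell types than Trem2. States 6, 5 and 3 had the highest levels (9887 ± 574, n = 3, 9587 ± 650.1 and 8681 ± 592 CPM) and overlapped in range. Neutrophils had 6200.0 ± 1482.5 CPM (n = 3) and overlapped with state 4 (5720 ± 497). Monocytes (4109 ± 569) lay apart below state 4 and overlapped with state 0 (3937 ± 279), which overlapped with state 1 (3859 ± 441, n = 3), as state 1 did with macrophages (3323 ± 324). State 2 (2644 ± 178) and proliferating cells (1725 ± 755) came next, and B cells (732 ± 502, n = 3) and T and NK cells (242 ± 83.7) had the lowest levels.

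The ratio of Trem2 to Tyrobp UMIs also differed between cell sets. For 100 Tyrobp UMIs there were 66.7 to 77.1 Trem2 UMIs in microglia, 30.6 to 43.2 in macrophages, 9.95 to 17.1 in neutrophils and 3.34 to 5.57 in monocytes. Monocytes thus had Tyrobp at the level of state 0 microglia beside little Trem2. Within microglia the ratio was highest in state 2, with 100.2 to 178.5. It was 65.4 to 76.6 in state 0 and 70.6 to 79.8 in state 5, and lower in states 3 (40.6 to 49.7), 4 (49.3 to 60.9) and 6 (49.7 to 58.5).

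Hcst, the adaptor that links receptors such as Klrk1 to phosphoinositide 3-kinase, had its highest level in T and NK cells. It stood there at 1166, 898, 940.4 and 971 CPM in AD 1, AD 2, ADAM 1 and ADAM 2, apart from neutrophils, the next class (345 ± 104, n = 3). B cells had 102 ± 53.7 CPM (n = 3). In microglia it was far lower, 142 ± 18.2 CPM in state 5 and 62.6 ± 9.4 in state 0. From state 5 down to state 1, every neighbouring pair in the order of levels overlapped. For 100 Tyrobp UMIs there were 291 to 720.2 Hcst UMIs in T and NK cells, 4.73 to 34.7 in proliferating cells, 4.12 to 8.60 in neutrophils and 1.41 to 1.53 in microglia. The ratio stayed between 1.01 and 2.91 in all 7 microglia states. The counting near the shared 3′ border of both genes is not described in the sources used here, and whether Tyrobp reads add to the microglial Hcst count was not tested.

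**Figure D2:**
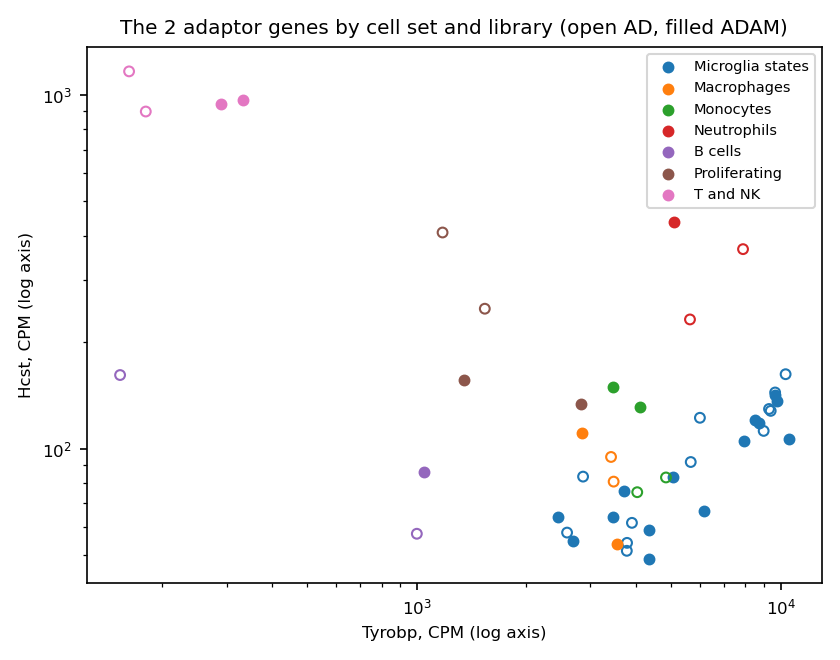
Hcst against Tyrobp (CPM, log axes), 1 point per cell set and library, open for AD and filled for ADAM. T and NK cells sit at the upper left with 898 to 1166 CPM of Hcst, and microglia states lie along a band in which both adaptors are higher together.

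The T and NK class held cells of both kinds, and its Tyrobp came unevenly from them (a division chosen after its values were seen). In 39 cells with an Ncr1 or Klrb1c UMI and no UMI of a Cd3 gene, as NK cells have, Tyrobp stood at 3731, 3641, 2188 and 3029 CPM in AD 1, AD 2, ADAM 1 and ADAM 2, from 6 to 14 cells each. In the 3151 cells with a Cd3 UMI and neither NK gene it was 118, 139, 254 and 238 CPM. Hcst was at 1003 ± 121 CPM in the Cd3 cells and 642 ± 226 in the NK-marked cells. Syk, with a mean of 65.5 ± 18.6 CPM in the NK-marked cells and 2.2 ± 1.0 in the Cd3 cells, and Plcg2, with 61.7 ± 38.8 and 1.3 ± 1.0 CPM, were unevenly divided in the same way.

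Syk, the kinase that docks on the phosphorylated adaptor, was highest in B cells, where it also serves the B-cell receptor. It stood at 187, 206 and 344 CPM in B cells of AD 1, AD 2 and ADAM 2, and neutrophils (153 ± 11.1, n = 3) and monocytes (143 ± 10.6) overlapped below them. State 2 (72.0 ± 40.4), state 0 (66.5 ± 5.3) and macrophages (62.8 ± 5.7) followed, apart from monocytes. States 4, 5 and 3 had 31.3 ± 15.5, 26.2 ± 1.6 and 20.7 ± 5.7 CPM, and T and NK cells 3.2 ± 1.5.

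Plcg2, the phospholipase that Syk activates, had its highest mean level in monocytes (91.1, 93.0, 139.9 and 87.6 CPM), apart from state 0 with 73.9 ± 5.1 CPM. B cells spanned 24.6 to 127 CPM (n = 3), from 15, 9 and 2 UMIs in AD 1, AD 2 and ADAM 2. Their highest value, in AD 1, lay within the monocyte range. Below state 0 every neighbouring pair overlapped down to state 5 with 33.8 ± 1.8 CPM. T and NK cells were again lowest, with 2.1 ± 1.4 CPM. Inpp5d was highest in 3 of the microglia states. States 2, 0 and 1 had 368 ± 104, 326 ± 32.3 and 311 ± 35.3 (n = 3) CPM and overlapped among themselves. Macrophages (166 ± 18.2 CPM) lay apart below them, and state 5 (129 ± 6.7) apart below macrophages. T and NK cells had 42.8 to 61.2 CPM.

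States 0 and 5, the 2 largest microglia states, were compared within each library. State 0 held 766, 2004, 1244 and 822 cells and state 5 held 594, 722, 631 and 771 cells, respectively, in library order. The receptor and adaptors stood higher in state 5 and the intracellular members stood lower, in all 4 libraries. Trem2 in state 5 was 2.84, 2.79, 2.40 and 2.60 times its CPM in state 0, Tyrobp 2.73, 2.47, 2.22 and 2.35 times, and Hcst 2.999, 2.34, 2.42 and 1.55 times. The Syk level in state 5 was 0.364, 0.357, 0.420 and 0.440 times that in state 0, that of Plcg2 0.399, 0.452, 0.472 and 0.518 times, and that of Inpp5d 0.360, 0.375, 0.443 and 0.416 times. No library departed from this division.

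The scale had a part in the size of these ratios but not in their direction. Over the 10153 genes tested in both states, 25.2% stood higher in state 5 and the median log2 ratio was −0.35. On the same scale the mean log2 ratio was 1.41 for Trem2, 1.28 for Tyrobp, 1.18 for Hcst, −1.34 for Syk, −1.13 for Plcg2 and −1.33 for Inpp5d. Cells of state 5 were also deeper, with a median of 6200.5 to 7883 UMIs against 4145 to 5904.5 in state 0. Counted as UMIs per cell, without scaling, the mean ratio of state 5 to state 0 was 3.19 for Trem2, 2.94 for Tyrobp, 2.83 for Hcst, 0.468 for Syk, 0.545 for Plcg2 and 0.472 for Inpp5d. A mean cell of state 5 in AD 1 held 54.8 Trem2 UMIs against 14.1 in state 0, and 0.884 Inpp5d UMIs against 1.80.

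Cells with at least 2000 UMIs were thinned to that depth, and those with fewer were left out. This dropped 10 to 50 cells per library in state 0 and 13 to 29 in state 5. The division between the states remained in the shares of cells with a UMI. Inpp5d was found in 42.7% to 52.4% of state 0 cells and 21.8% to 24.3% of state 5 cells, over the 4 libraries. Plcg2 was found in 12.7% to 15.1% against 5.31% to 6.90%, Syk in 9.36% to 13.3% against 3.01% to 5.79%, and Hcst in 10.8% to 14.2% against 19.0% to 21.1%. Shares of Trem2 and Tyrobp were at least 98.4% in both states and hold little information on the level.

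**Figure D3:**
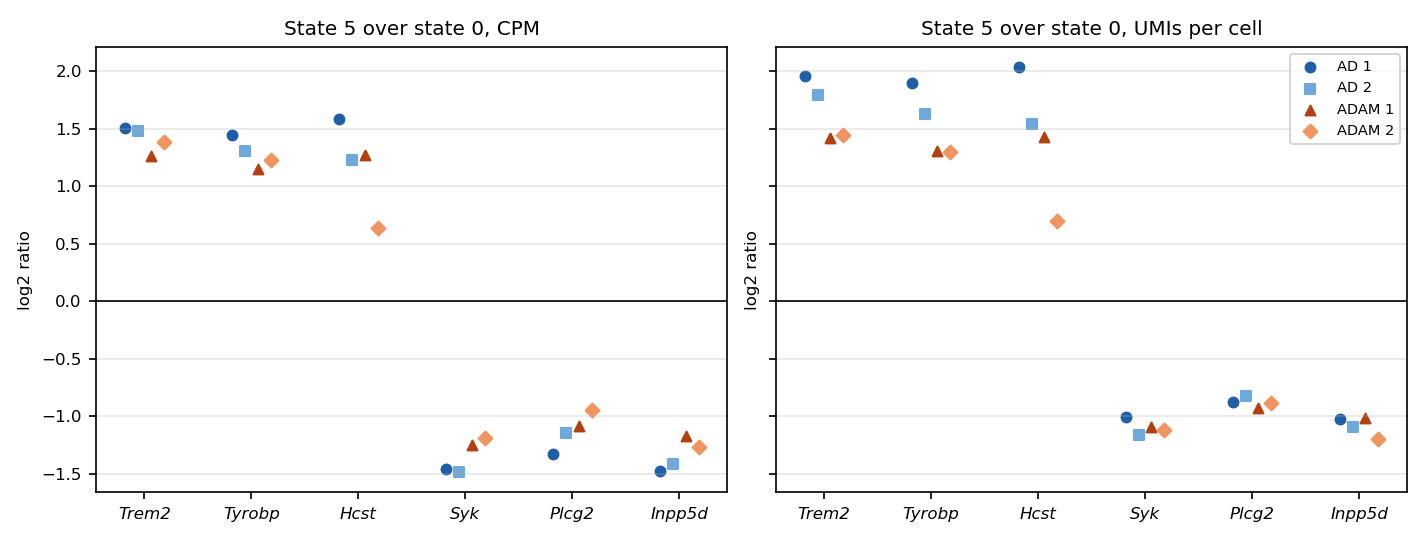
Log2 ratio of state 5 to state 0 within each library, from CPM (left) and from UMIs per cell (right). Trem2, Tyrobp and Hcst lie above 0 and Syk, Plcg2 and Inpp5d below 0 in all 4 libraries on both scales.

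The other genes of the pathway were compared between the same 2 states, beside the 25.2% of all genes that stood higher in state 5. The lists were drawn up with earlier results of these data known, and the counts are descriptions. Of the 22 microglia genes listed as Trem2-dependent, all 22 stood higher in state 5, with a median log2 ratio of 2.31, as did 3 of 3 ligand genes tested in both states (Apoe, Lpl and Anxa5, median 2.88). The shares in lists of genes that act inside the cell were near or below that of all genes. Higher in state 5 were 5 of 23 Src-family and Syk-family kinases, adaptors and exchange factors, with a median of −0.64, and Lyn, a Src-family kinase of myeloid cells, had a log2 ratio of −1.36. In the phosphoinositide 3-kinase and mTOR arm 3 of 21 stood higher (median −0.51), and in the phospholipase C, calcium and NFAT arm 4 of 22 (median −0.62).

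The share of inhibitors higher in state 5 was close to that of all genes. Of 20 inhibitors of signalling through such motifs, 5 stood higher in state 5, beside 25.2% of all genes, and the median was −0.70, with Cd33, a sialic acid-binding inhibitory receptor, at −2.03 and the phosphatase Ptpn6 at −0.01. The median over all genes, −0.35, lay above each of these list medians but was on the same side of 0. Other receptors that use Tyrobp or Hcst had 2 of 8 higher, also near the share of all genes, and a median of −0.40.

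Across the states present in all 4 libraries, 20 points from 5 states, the members moved in 2 blocs. Tyrobp and Hcst had a Pearson correlation of log2 levels of 0.89, and Trem2 had 0.74 with Hcst and 0.60 with Tyrobp. Syk and Inpp5d had 0.84, Syk and Plcg2 0.65 and Plcg2 and Inpp5d 0.60. Between the blocs every correlation was below 0, from −0.40 for Trem2 with Syk and with Inpp5d to −0.88 for Tyrobp with Inpp5d. Over all 9 sets with cells in all libraries, 36 points, these blocs did not hold. Hcst was at −0.64 to −0.86 with each other member. With Syk, Plcg2 and Inpp5d, Trem2 was at 0.23, 0.44 and 0.63 and Tyrobp at 0.55, 0.76 and 0.40, all above 0. Syk and Plcg2 were at 0.90. Points of 1 library share its depth and preparation, and the values are descriptions.

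Genes whose levels were most like those of each member over the same 36 points were sought among 7946 genes. Trem2 was most like Syngr1, Timp2, Ctsl, Ctsd and Abhd12 (r of 0.97 to 0.98), of which Ctsl and Ctsd encode lysosomal proteases. Tyrobp was most like Fcer1g (0.95), another adaptor with the same kind of motif, and Pkib, Lamp1, Npc2 and Creg1 (0.93 to 0.95). Hcst was most like Eomes (0.89), Gimap8, Tcrg-C4, Themis and Gimap7, genes of T and NK cells. Syk was most like Nfam1 (0.97), Prkcd (0.95), Tcf7l2, Cd300a and Il6ra. Plcg2 was most like the kinase gene Lyn (0.96), Cd302 (0.95), Spi1 (0.94), which encodes PU.1, and Il13ra1 (0.93). Inpp5d was most like Srgap2 (0.96), Mef2a (0.94), Csad, Adap2os and Kcnk6.

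The loss of Axl and Mertk was then set against the 6 genes. In microglia as a whole, Trem2 was at 5518, 4159, 4178 and 4555 CPM in AD 1, AD 2, ADAM 1 and ADAM 2. Both ADAM libraries lay inside the range of the AD libraries. The log2 fold of ADAM over AD was −0.09 (SE 0.17). Tyrobp was at 7154, 5693, 6263 and 6218 CPM, again with ADAM inside the AD range, and a log2 fold of 0.01 (SE 0.16). Hcst was at 109.5, 86.9, 88.2 and 95.4 CPM (log2 fold −0.04, SE 0.15).

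Syk and Plcg2 overlapped between the genotypes in microglia too, and Inpp5d hardly differed between AD 1 and ADAM 1. Syk was at 46.4, 54.5, 51.3 and 41.6 CPM (log2 fold −0.07, SE 0.13) and Plcg2 at 56.3, 60.6, 56.4 and 52.1 CPM (−0.05, SE 0.10). Inpp5d was at 239.5, 262, 239.3 and 206 CPM, with AD 1 and ADAM 1 almost level, and had a log2 fold of −0.12 (SE 0.12). By edgeR's quasi-likelihood test 0 of 6 members were called (all adjusted p = 1.0), and 0 had an unadjusted p under 0.05, as against 0.0419% of 11924 genes called and 2.35% under the unadjusted threshold. With 2 libraries a group these tests can miss even large differences, and the deleted Axl itself was not called in microglia by the same test. The lack of a call therefore does not show that the members were equal between the genotypes.

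In both genotypes the library with the larger share of state 5 among its microglia had more Trem2 and Hcst and less Inpp5d. Tyrobp was higher there in AD and slightly lower in ADAM (6218 against 6263 CPM). State 5 made up 37.1% and 23.3% of microglia in AD 1 and AD 2 and 27.2% and 37.4% in ADAM 1 and ADAM 2. With the states weighted equally, the log2 folds of the 6 members lay between −0.25 and −0.03 and none was called. The part of state composition in each library's total was not tested further.

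The share of microglia with a UMI was a second readout. Unthinned, Trem2 was found in 98.7%, 98.97%, 97.9% and 96.7% of microglia in AD 1, AD 2, ADAM 1 and ADAM 2, and in 13.9%, 23.3%, 36.4% and 28.4% of T and NK cells, which have a median of 2925.5 to 3547.5 UMIs. Inpp5d was found in 61.3%, 72.3%, 65.1% and 58.6% of microglia (exact 95% intervals from 56.5% to 60.8% in ADAM 2 up to 70.7% to 73.9% in AD 2), and in 38.0%, 39.1%, 35.9% and 31.5% after thinning to 2000 UMIs. The thinned shares leave out cells with fewer than 2000 UMIs, 164, 186, 247 and 258 microglia in library order. State 2, with a median depth of 808.5 to 886.5 UMIs, lost most of its cells. Both thinned ADAM values for Inpp5d lay below both AD values, and the same held for Plcg2 (10.9%, 11.6%, 10.1% and 9.71%). An exact two-sided permutation test gave 0.333 for each, the smallest value that 2 against 2 libraries allow. Intervals cover counting error only.

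Within the 2 large states the members passed no test either. In state 0, Trem2 had a log2 fold of 0.05 (SE 0.15), Tyrobp of 0.15 (SE 0.16), Syk of −0.06 and Plcg2 of −0.05. Inpp5d was at 369, 331, 308 and 295 CPM, without overlap, and had a log2 fold of −0.13 (SE 0.11). Hcst was at 54.1, 61.7, 58.8 and 75.9 CPM there, with overlapping genotypes and a log2 fold of 0.28 (SE 0.15). EdgeR called 0.101% of 10912 genes in state 0 and none of the 6 members (lowest adjusted p = 0.998), none of which had an unadjusted p under 0.05.

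In state 5 the receptor and both adaptors lay lower in ADAM, without passing the test. Trem2 was at 8233 and 7564 CPM in AD 1 and AD 2 against 6803 and 6848 in ADAM 1 and ADAM 2, with no overlap and a log2 fold of −0.22 (SE 0.12). Tyrobp was at 10320 and 9657 against 9635 and 8736 CPM (−0.13, SE 0.12) and Hcst at 162 and 144 against 142 and 118 CPM (−0.24, SE 0.12). Neither overlapped, but AD 2 and ADAM 1 were almost level for both. The share of all genes without overlap between the genotypes is not given here, so the lack of overlap is only a description. Syk, Plcg2 and Inpp5d had log2 folds of 0.10, 0.08 and 0.01. In state 5, 0.153% of 10436 genes were called by edgeR and none of the members, whose lowest adjusted p was 0.954 and of which 0 had an unadjusted p under 0.05.

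The interaction of state and genotype asks whether the genotype difference itself differs between states 5 and 0. It was −0.26 (SE 0.16) for Trem2, −0.28 (SE 0.16) for Tyrobp and −0.48 (SE 0.28) for Hcst, and 0.17, 0.12 and 0.14 for Syk, Plcg2 and Inpp5d. EdgeR called 1.02% of 11132 genes and none of the members (adjusted p of 0.650 to 0.901). The value for Hcst passed the test without AD 2 (−0.75, adjusted p = 0.0078) and without ADAM 1 (−0.82, adjusted p = 1.8e-06).

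**Figure D4:**
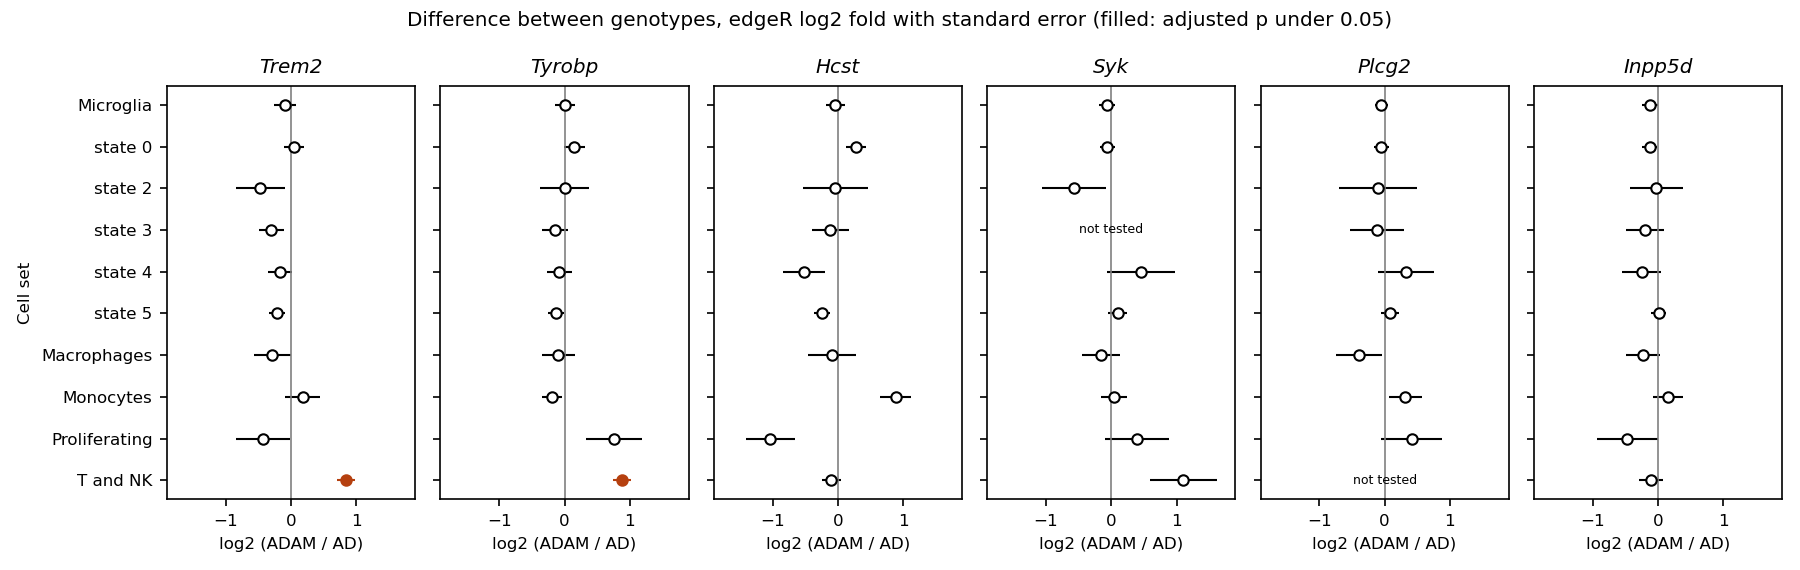
Log2 fold of ADAM over AD with its standard error for each gene in 10 cell sets, from edgeR. The 2 filled points, Trem2 and Tyrobp in T and NK cells, passed an adjusted p of 0.05, and the others did not.

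T and NK cells were the only set of 10 in which members passed the test. Trem2 was at 64.3, 76.4, 135 and 115 CPM in AD 1, AD 2, ADAM 1 and ADAM 2, both ADAM libraries above both AD libraries. It rose by 0.84 on the log2 scale (SE 0.14, adjusted p = 0.0248 by edgeR). Tyrobp was at 162, 180.0, 290.4 and 334 CPM, likewise without overlap, and rose by 0.88 (SE 0.13, edgeR adjusted p = 0.0110). In this set 0.241% of 9533 genes were called. Hcst, whose level was highest in this class, was at 1166, 898, 940.4 and 971 CPM and had a log2 fold of −0.10 (SE 0.14). Inpp5d had −0.11 (SE 0.18) and Syk 1.10 (SE 0.52), the latter from 6 to 14 UMIs per library, and Plcg2 had too few UMIs to be tested.

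Markers of other cell types were also counted in T and NK cells, and their microglia and monocyte sums were higher in both ADAM libraries. All 8 microglia markers were detected in T and NK cells of every library, and they summed to 326 and 336 CPM in AD 1 and AD 2 and to 532 and 395 CPM in ADAM 1 and ADAM 2. The 6 monocyte markers, all detected and among which Ly6c2, Ccr2 and Plac8 are also known from T cells, summed to 553 and 441 CPM in AD and 709 and 739 CPM in ADAM. Neutrophil markers summed to 13.9 and 38.7 against 22.5 and 1733 CPM, the last in ADAM 2, the library with 580 neutrophils. Macrophage markers stayed at 2.8 to 9.8 CPM, with Cbr2 at 0 in all 4 libraries. The authors marked 216 doublets of a microglia and a T cell, 209 of them in AD 1, where Trem2 in T and NK cells was lowest. No source used here says why the marks differ between libraries, so the T and NK class of the other libraries may hold unmarked doublets. The part of these in the 2 calls was not tested.

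Relative to the microglia markers, Trem2 in T and NK cells had 19.7, 22.7, 25.4 and 29.1 UMIs per 100 marker UMIs in AD 1, AD 2, ADAM 1 and ADAM 2. In the microglia of the same libraries the ratio was 33.5, 26.4, 25.8 and 36.0. Tyrobp had 49.7, 53.6, 54.6 and 84.6 UMIs per 100 marker UMIs in T and NK cells. This was above the ratio in whole microglia of each library (43.4, 36.1, 38.7 and 49.1) and below that in state 5 (79.4, 88.6, 78.8 and 86.5). It was far below the ratio in monocytes (549, 392, 354 and 507). The class also held the NK-marked cells described above, with Tyrobp at 2188 to 3731 CPM. The share of T and NK cells with a Trem2 UMI was 8.83%, 15.0%, 22.4% and 19.0% after thinning to 2000 UMIs.

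Restricting the class to cells with a Cd3 UMI and without Ncr1 or Klrb1c, an alternative added after the data were seen, left both calls in place. Trem2 then had a log2 fold of 0.85 (edgeR adjusted p = 0.0314) and Tyrobp 0.95 (adjusted p = 0.0116), beside 0.19% of 9463 genes called. The restriction took out NK-marked cells but left microglial transcripts. In the Cd3 cells the microglia markers summed to 312 and 332 CPM in AD 1 and AD 2 and to 518 and 404 CPM in ADAM 1 and ADAM 2. Their part in the calls was not tested. Both calls depended on single libraries and on the test, however: limma-voom gave an adjusted p of 0.0943 for Trem2 and 0.0517 for Tyrobp, and edgeR without the robust fit 0.0893 and 0.0555. Without AD 1 the adjusted p was 0.438 for Trem2 and 0.227 for Tyrobp, without AD 2 0.0830 and 0.0635, and without ADAM 1 that of Trem2 was 0.0985.

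**Figure D5:**
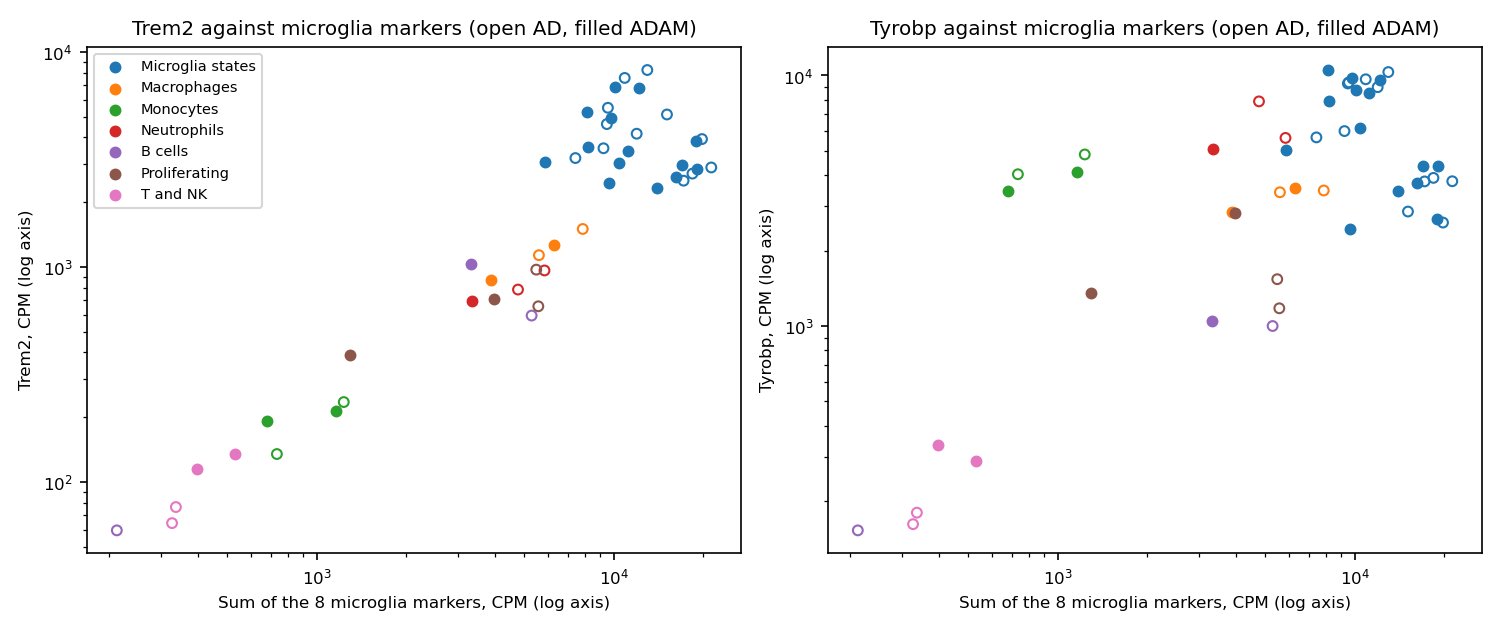
Trem2 (left) and Tyrobp (right) against the summed level of 8 microglia markers (CPM, log axes), 1 point per cell set and library, open for AD and filled for ADAM. Outside microglia, Trem2 is in broad terms higher where the marker sum is higher, though not library by library in B cells and proliferating cells. Monocytes and neutrophils lie above that band for Tyrobp. The filled T and NK points have both higher marker sums and higher Trem2 and Tyrobp than the open ones.

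In monocytes and proliferating cells Hcst had an unadjusted p under 0.05 (0.0066 and 0.0240) and did not pass the adjusted test. Monocyte Hcst was at 75.3, 82.9, 131 and 149.6 CPM in AD 1, AD 2, ADAM 1 and ADAM 2, without overlap (log2 fold 0.89, SE 0.24, adjusted p = 0.291 by edgeR, which called 0.155% of 6460 genes). Neutrophil markers, which stand beside a higher Hcst in the neutrophil class, summed to 184, 2143, 4240.5 and 71052 CPM in the same monocytes. The adjusted p was 0.0292 without the expression filter and 0.0248 without ADAM 1. Hcst in proliferating cells was at 408, 249, 134 and 156 CPM, also without overlap (log2 fold −1.03, SE 0.38, adjusted p = 0.453 by edgeR, which called 0.0842% of 7124 genes). The T-cell markers in those cells summed to 3758, 2029, 817 and 366 CPM and the microglia markers to 5581, 5492, 3965 and 1294 CPM. Without ADAM 1 the adjusted p of Hcst was 0.0397 and without ADAM 2 0.00499. The part of either in these differences was not tested.

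Tyrobp in proliferating cells was at 1177, 1538, 2835.5 and 1350 CPM, with overlap (log2 fold 0.76, SE 0.43, adjusted p = 0.687 by edgeR). It passed the test without ADAM 2 (1.20, edgeR adjusted p = 0.00013). Without ADAM 1, Trem2 and Inpp5d passed it in these cells, both lower in ADAM (−0.90 and −1.25, adjusted p = 0.0317 and 0.0214). No member was called in macrophages (0.0154% of 6483 genes called), state 2 (0.0635% of 3150), state 3 (0.313% of 3191, Syk not tested) or state 4 (0.127% of 3938), where log2 folds ran from −0.57 for Syk in state 2 to 0.46 for Syk in state 4. In all, 58 of 60 pairs of member and cell set were tested, 2 were called and 4 had an unadjusted p under 0.05. DESeq2 and limma-voom called no member in the 9 sets other than T and NK cells.

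In whole microglia the other genes of the pathway passed no test either. No gene of the 10 lists was called in either direction by edgeR, and 3 genes (Axl, Sirpa and Pilrb2) had an unadjusted p under 0.05. The median log2 fold was −0.14 over 4 ligands, −0.02 over 8 sheddases and processing proteins, −0.01 over 23 kinases, adaptors and exchange factors, −0.07 over 21 genes of the phosphoinositide 3-kinase arm, −0.03 over 22 of the phospholipase C arm, −0.04 over 21 inhibitors and −0.01 over 22 Trem2-dependent genes, beside 0.0035 over all genes tested. Apoe, a lipoprotein ligand of Trem2, was at 20979, 16599.9, 12758 and 23266 CPM in AD 1, AD 2, ADAM 1 and ADAM 2, with no order by genotype. Adam10, the main sheddase of Trem2, was at 120.4, 124, 125 and 99.4 CPM. Lyn was at 293, 358, 297 and 319 CPM and Csf1r, a receptor that signals in part through Tyrobp, at 2000.3, 2265, 2242 and 1768 CPM.

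Among the other named genes, Sirpa and Treml2 did not overlap between the genotypes, and Cd300lf and Lpl did. None of these 4 passed the test with all libraries. Sirpa, an inhibitory receptor for the CD47 signal, stood at 638 and 613 CPM in the AD libraries and at 488 and 433 in the ADAM libraries (log2 fold −0.39, SE 0.13, adjusted p = 1.0 by edgeR). It lies 0.79 Mb from Mertk on chromosome 2. Treml2, the neighbour of Trem2 in its gene cluster, was at 18.5, 15.3, 18.7 and 31.2 CPM (0.64, SE 0.30), and Cd300lf, an inhibitory receptor, at 10.0, 6.54, 9.39 and 30.7 CPM (1.39, SE 0.83), both highest in ADAM 2. Both passed the test without ADAM 1 (0.99 and 2.03, edgeR adjusted p = 0.0019 and 0.0032). Lpl, a ligand and lipid enzyme, was at 611, 406, 280 and 462 CPM (−0.39, SE 0.36).

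The Trem2-dependent genes leaned in opposite directions in the 2 large states. In state 0, 18 of 22 had a positive fold, with a median of 0.21, and in state 5, 4 of 22, with a median of −0.18, beside medians of 0.0060 and 0.00099 over all genes. Apart from Axl, which was deleted and was the gene of this list called in both states, none passed the test in either. In state 0, Cd63, a tetraspanin of late endosomes, was at 600.5, 612, 764 and 834 CPM (log2 fold 0.48, SE 0.13, edgeR adjusted p = 0.514), with ADAM above AD. In state 5, Gpnmb, a glycoprotein of lipid-laden phagocytes, was at 1489, 1353, 871 and 1053 CPM (−0.57, SE 0.12, adjusted p = 0.131), with ADAM below AD, and Lpl was at 1109, 1126, 659 and 901 CPM (−0.53, SE 0.14, adjusted p = 0.297). These 3 were singled out after their values were seen. The genes that modulate soluble Trem2, the Ms4a family, had a median of −0.47 over 6 members in state 5, with 1 of 6 positive and none called.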

How the data were processed

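Raw UMI counts per gene and cell were deposited by the authors without normalization. The authors' table of cells gives library, class, microglia state, doublet marks and a mitochondrial percent. Its cell annotations and that percent are the authors' own deposited values. Per the submitters' processing notes, the tools were Seurat 3.2.1.9002 and Cell Ranger 3.1.0 and the build was mm10; which step each served is not given.

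Counts were summed per library over each class and each state with at least 20 cells. Marked doublets were left out, 823 without a class and 216 of the microglia class without a state. Levels are CPM without further scaling. Genotypes were compared in edgeR 4.0.16 (R 4.3.3) by its quasi-likelihood test, with TMM scaling, the expression filter at a minimum count of 10, a robust fit and Benjamini-Hochberg adjustment over all genes at 0.05. Log2 folds are ADAM over AD. The state by genotype interaction had library as a term. Replicates are separate pools per the labels, and chi-square per degree of freedom between them was 21.5 in AD and 30.7 in ADAM, beyond sampling noise. Alternatives used DESeq2 1.42.0, limma 3.58.1, DESeq2 size factors in place of TMM, no TMM scaling, no expression filter, a fit that was not robust, equal weight for states, doublets kept, state 2 left out, each library left out, a replicate block, and thinning to 2000 or 1000 UMIs. Thinning left out cells with fewer UMIs than the depth they were to be thinned to. The scripts were tested on simulated data. Other software was Python 3.11.15, numpy 2.4.6, scipy 1.17.1 and pandas 2.3.3.

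The members and lists were chosen with earlier results of these data known. Beside the 6 members, the rule named from each list any gene called in microglia, and otherwise the 2 with the highest mean CPM and the 2 with the largest fold among genes at 10 CPM or more, and for each member the 5 genes of most similar level by Pearson correlation of log2(CPM + 1), each library centred, among genes at 10 CPM or more. The text gives values for part of the genes so named. Positions were matched for 16580 of 16798 gene names, and promoters for 5 of 6 members.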

Additional observations from a re-analysis of the deposited data

Results flagged for a closer look

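Tyrobp passed the test between genotypes in T and NK cells and did not pass it in microglia, and the difference between both folds was itself tested, in a comparison added after the data were seen. The log2 fold of ADAM over AD in T and NK cells minus that in microglia was 0.88 (SE 0.16, edgeR adjusted p = 0.0142, 0.194% of 11880 genes called). Tyrobp was higher in both ADAM libraries than in both AD libraries in T and NK cells (162 and 180.0 against 290.4 and 334 CPM) and overlapped in microglia. The same difference for Trem2 was 0.94 (SE 0.23, adjusted p = 0.260). The sums of microglia and of monocyte markers in T and NK cells were also higher in both ADAM libraries, and their part in the result was not tested.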

How the results depend on the processing

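Over 50 results, 496 alternatives were computed, of which 441 kept the direction, or the value or count within its limits, and the side of the threshold. No member was called in whole microglia under any of them, but folds near 0 changed sign: Tyrobp was at −0.038 without TMM scaling, −0.093 with states weighted equally and −0.16 to 0.20 with 1 library left out, Trem2 at −0.30 to 0.14, Hcst at −0.22 to 0.15 and Syk at −0.20 to 0.045. Trem2 in state 0 was at −0.038 without TMM scaling. With 1 library left out Syk in state 0 lay between −0.14 and 0.0052, Inpp5d in state 5 between −0.068 and 0.087, and in T and NK cells Hcst between −0.27 and 0.094 and Inpp5d between −0.33 and 0.17. Pathway genes called lower in microglia numbered 1 (Axl), not 0, without TMM scaling, with DESeq2, limma-voom, a fit that was not robust or equal states, and 0 to 2 with 1 library left out (Axl, and Spp1 without AD 2), and genes called higher 0 to 2. Members called in T and NK cells numbered 0 with limma-voom and without the robust fit, and 0 to 2 with 1 library left out. In monocytes 1 member (Hcst) was called without the filter and 0 to 1 with 1 library left out, in proliferating cells 0 to 3, and for the state by genotype interaction 0 to 1. The share of microglia with a UMI differed by −0.39 and −0.37 percentage points for Trem2 after thinning to 2000 and 1000 UMIs (−1.54 unthinned), by −0.30 and 0.34 for Tyrobp (−0.74) and, for Hcst, by −0.49 at 1000 UMIs (0.75). Replicate numbers did not pair the libraries (correlation of same-numbered deviations −0.22 in microglia, −0.28 to 0.11 in other sets). With a replicate block edgeR called 0 genes rather than 5 in microglia and 90 rather than 23 in T and NK cells, and the same number of members, 2, there; with crossed numbers, added after the data were seen, 8 and 74 genes and 0 and 2 members. Depth limits Syk and Plcg2 most, with 6 to 14 and 2 to 10 UMIs per library in T and NK cells.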
